A study of Mus musculus with 18 samples.

Results

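Retained-intron transcripts are isoforms that the GENCODE annotation of the mouse genome (release M21, GRCm38) marks as keeping intron sequence of their gene while coding no protein. All 21823 such transcripts among 135107 annotated transcripts in the cartilage data were taken, each by this annotation alone. They belonged to 9408 genes, and 14578 of them, in 7151 genes, reached 10 estimated counts in at least 3 of the 18 libraries. Of the 7245 that did not, 687 were listed at 0 in every library. This filter kept 65445 transcripts of all kinds. A total of 3364 of the 14578 passed without any day 7 injured library at 10 counts, and 1 passed only through that group, so the filter itself kept more members that were high outside the injured knees. The 654 transcripts that just passed, with exactly 3 libraries at 10 counts, had a median mean count of 5.74, and the 823 just outside, with exactly 2 libraries, had 4.75.

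Introns are normally removed from a transcript by the spliceosome, which recognises a 5′ splice site that nearly always opens with GT and a 3′ splice site that ends with AG, preceded by a stretch rich in pyrimidines. A transcript that keeps an intron is often held in the nucleus, or is degraded in the cytoplasm after translation meets a premature stop codon, and it then yields no full-length protein. Genes of the splicing machinery, among them the SR proteins and the CLK kinases that phosphorylate them, are known to control their own output through such transcripts.

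The study followed the cartilage of the mouse knee after rupture of the anterior cruciate ligament (ACL), a model of post-traumatic osteoarthritis. The right knee of 12-week-old male C57Bl/6J mice was ruptured by a single mechanical load, and cartilage caps of the femoral condyles were collected 1 or 7 days later. The groups used here were 3 libraries of injured right knees and 3 of uninjured contralateral left knees at day 1, the same numbers at day 7, and 6 libraries of naïve knees of mice without injury, whose label places them with day 7. No group carried an engineered allele, and each library pooled the knees of several mice. The sources conflict on the pools. The series description gives one number of mice for all samples, whereas by the study's scheme more mice went into an injured or contralateral library at day 7, because part of the cartilage was lost, than into a naïve or day 1 library. If the scheme holds, pool size and cartilage loss cannot be told apart from the group in comparisons with naïve knees. The labels do not say which libraries share mice, and injured and contralateral knees came from the same mice. Since the left and right knees of the naïve mice were pooled apart, the 6 naïve libraries share animals as well and stand for fewer than 6 independent pools. The p-values, SDs and FDRs here treat all libraries as independent, so they can be too small.

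RNA was total RNA depleted of ribosomal RNA, and the libraries held between 16074762 and 41794005 estimated counts, with a median of 25465706. Between 7317 and 13594 retained-intron transcripts per library had 10 counts or more. The defining chondrocyte genes were present in every library, with a summed level of 4060 to 7516 CPM (counts scaled to library totals that are adjusted by TMM factors, which scale libraries so that most transcripts do not differ) in the naïve group and 6277 to 7155 CPM in day 7 injured knees, and Col2a1, the gene of type II collagen, was the most abundant of the 12. Haemoglobin genes, which mark red blood cells, were also abundant. Day 7 contralateral replicate 1 stood apart from the other libraries. Protein-coding transcripts took 58.2% of its counts, against 69.6 to 78.3% in the naïve and day 1 injured groups, while processed pseudogenes took 16.8%, and 3.90% of its counts lay on transcripts without an annotation. The counts of calls and the difference in library share against day 7 contralateral knees are therefore also given without it. Shares within genes, ranges of gene lists and tests of single transcripts against these knees include it. The study left a library with a low mapping rate out of its own analysis, and since the labels do not say which, all libraries labelled for these groups were used here. The TMM factors were 0.793 to 0.814 in day 7 injured, 0.958 to 1.14 in naïve and 0.702, 1.06 and 0.996 in day 7 contralateral libraries, so that levels given in CPM, and fold changes of level, stand higher in injured knees than on the scale of library totals. Shares of a library or of a gene do not depend on these factors.

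The counts were estimated by Kallisto, which divides a read among all isoforms that contain it. The level of a retained-intron transcript thus rests on the reads from its own intron and on a model for those from shared exons, and members of the same gene, up to 14 of them, share reads. Reads of unspliced precursor RNA could be assigned to these transcripts as well, and their part in the results was not tested. In tissue of mixed cells, fewer cells of a type and less RNA per cell cannot be told apart.

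Retained-intron transcripts were generally minor isoforms. The median member that passed the filter held 2.84% of its gene's counts in naïve knees, although 2796 held over 10% and 376 held over 50%. Their median mean count was 22.8 against 83.8 for protein-coding transcripts, and their median length 1304 against 2439 bases. Compared with the spliced transcripts of the same gene, 4724 members (32.4%) contained at least 1 whole intron, 9820 (67.4%) contained part of one, and 34 (0.233%) contained none by this comparison. The whole introns numbered 6169 in 3263 genes. They had a median length of 310 bases (quartiles 129 and 797) and a median GC content of 50.1%. In 71.3% of the 4724 members the first such intron was shorter than the median intron of the gene, a length whose own median was 690.5 bases. GT at the start with AG at the end was found in 6063 of them (98.3%), GC with AG in 66 (1.07%) and AT with AC, the pair typical of the minor spliceosome, in 10.

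The splice sites of introns kept in some of the transcripts described below, called or not, are shown from GRCm38, with the intron in capitals and the flanking exon in lower case. Plod1 codes for a lysyl hydroxylase of collagen, Fndc1 for a fibronectin type III domain protein, Postn for the matrix protein periostin, Angptl2 for a secreted angiopoietin-like protein and Srsf5 for an SR protein. Plod1-204 (ENSMUST00000124292) kept intron 9 of 18 of the spliced transcript at chr4:147923246-147925516 on the minus strand, a stretch of 2271 bases. Fndc1-203 (ENSMUST00000114579) kept 980 bases at chr17:7765408-7766387 on the minus strand. Postn-207 (ENSMUST00000145036) kept intron 17 of 21, 2895 bases at chr3:54380493-54383387 on the plus strand. Angptl2-203 (ENSMUST00000143252) kept 1285 bases at chr2:33242394-33243678 on the plus strand, and Srsf5-212 (ENSMUST00000153056) kept 1229 bases at chr12:80947866-80949094 on the plus strand. Their 5′ splice sites (12 exon bases, then the first 18 of the intron) and 3′ splice sites (the last 28 intron bases, then 12 of the exon) read as follows.
Plod1-204, 5′ splice site: attcacaaccagGTGAGTGGGAGCTACCCT
Plod1-204, 3′ splice site: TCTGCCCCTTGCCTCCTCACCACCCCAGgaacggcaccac
Fndc1-203, 5′ splice site: gcaccatcgtggGTGAGTGAGACTGGTTCC
Fndc1-203, 3′ splice site: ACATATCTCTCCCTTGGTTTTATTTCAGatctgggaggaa
Postn-207, 5′ splice site: tcaaaacggaagGTAAAGCCAACACTCTCC
Postn-207, 3′ splice site: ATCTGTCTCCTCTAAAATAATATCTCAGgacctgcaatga
Angptl2-203, 5′ splice site: gagacctataagGTGAGACCACTGGGCCTG
Angptl2-203, 3′ splice site: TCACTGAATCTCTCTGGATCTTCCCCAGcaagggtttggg
Srsf5-212, 5′ splice site: gtcagctggcagGTTTGTTGAAATACAGTT
Srsf5-212, 3′ splice site: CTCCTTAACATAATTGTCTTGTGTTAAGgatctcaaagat

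A set of 3 short introns is shown whole, each with 10 bases of exon on either side, since each is the complete sequence by which the transcript differs from its spliced form at that place. Ecm1-210 (ENSMUST00000155815), from the gene of extracellular matrix protein 1, kept 123 bases at chr3:95737889-95738011 on the minus strand with 58.5% GC. Pkd1-202 (ENSMUST00000226178), from the gene of the mechanosensory membrane protein polycystin-1, kept a pair of introns, the first of 89 bases at chr17:24579866-24579954 on the plus strand with 57.3% GC. Clk1-204 (ENSMUST00000129577), from the gene of an SR protein kinase, kept 3 introns, and the last, of 87 bases at chr1:58417180-58417266 on the minus strand, had 27.6% GC and a 3′ end rich in T.
Ecm1-210: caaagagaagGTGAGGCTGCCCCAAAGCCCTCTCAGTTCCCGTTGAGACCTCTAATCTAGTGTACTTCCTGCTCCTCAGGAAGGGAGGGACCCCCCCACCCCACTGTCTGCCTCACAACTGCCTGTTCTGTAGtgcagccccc
Pkd1-202: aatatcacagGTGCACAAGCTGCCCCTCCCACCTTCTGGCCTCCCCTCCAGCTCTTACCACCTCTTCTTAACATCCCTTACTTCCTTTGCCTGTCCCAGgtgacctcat
Clk1-204: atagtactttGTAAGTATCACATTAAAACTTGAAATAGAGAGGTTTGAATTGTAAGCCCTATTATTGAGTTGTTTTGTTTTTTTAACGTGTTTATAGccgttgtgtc

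Retained-intron transcripts took a smaller share of the library in injured knees at day 7 than in naïve knees. Of all counts on annotated transcripts, they held 2.11, 2.05 and 2.14% in the 3 injured libraries, with a mean of 2.10% ± 0.0469 (SD, n = 3). The naïve libraries ran from 2.62 to 3.77% with a median of 3.08% and a mean of 3.21% ± 0.446 (SD, n = 6). Day 7 contralateral libraries held 2.49, 2.94 and 2.86%, and overlapped the naïve ones. Every injured library was below every naïve and every contralateral one. The difference from naïve was -1.11 percentage points (exact 2-sided permutation test over libraries, p = 0.0238, the smallest that 3 against 6 libraries allow if all are taken as independent; 0.0952 after adjustment over the 4 comparisons). Against the contralateral knees it was -0.662 points (exact permutation test, p = 0.1, the smallest that 3 against 3 allow, and 0.2 after adjustment), and -0.799 without contralateral replicate 1. A lower share than in naïve libraries was not particular to this class. Without overlap, injured libraries held 1.15 to 1.18% against 1.32 to 1.59% for processed transcripts. For long intergenic noncoding RNAs they held 0.668 to 0.746% against 0.774 to 1.10%, and for antisense transcripts 0.201 to 0.208% against 0.263 to 0.368%. Nonsense-mediated decay and protein-coding transcripts overlapped.

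At day 1 the shares were higher and the groups overlapped. Injured libraries held 3.20, 4.12 and 3.68% and contralateral libraries 4.03, 3.61 and 3.20%, a difference of 0.0541 points (exact permutation p = 0.7). The mean of the day 1 injured libraries, 3.67%, exceeded the naïve mean by 0.46 points (exact permutation p = 0.19, adjusted p = 0.254). On the TPM scale, which corrects for transcript length, naïve libraries held 1.05 to 1.69%, day 7 injured libraries 0.907 to 1.10% and day 1 injured libraries 1.74 to 2.49%. On that scale day 7 injured and naïve libraries overlapped (a difference of -0.431 points, exact permutation p = 0.0476, adjusted p = 0.0952). Injured and contralateral libraries at day 7 overlapped too, the latter at 0.822, 1.64 and 1.43% (a difference of -0.287 points, exact permutation p = 0.4), and contralateral replicate 1, which stood apart, lay below all 3 injured libraries. The day 1 injured libraries all lay above the naïve ones on this scale (a difference of 0.747 points, exact permutation p = 0.0238, adjusted p = 0.0952). Day 1 contralateral libraries held 1.63 to 2.41% on it, with a mean of 1.95%, and overlapped both the naïve and the day 1 injured ones. Injured knees of day 1 differed from them by 0.234 points (exact permutation p = 0.6).

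Within the genes that have a retained-intron transcript the pattern at day 7 was the same. These transcripts held 3.90% ± 0.0605 (SD, n = 3) of their genes' counts in injured knees against 6.21% ± 0.803 (SD, n = 6) in naïve and 5.43% ± 0.122 (SD, n = 3) in contralateral knees. The naïve range of 5.30 to 7.49% and the contralateral range of 5.33 to 5.57% both lay above the injured range of 3.84 to 3.96%.

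**Figure D1:**
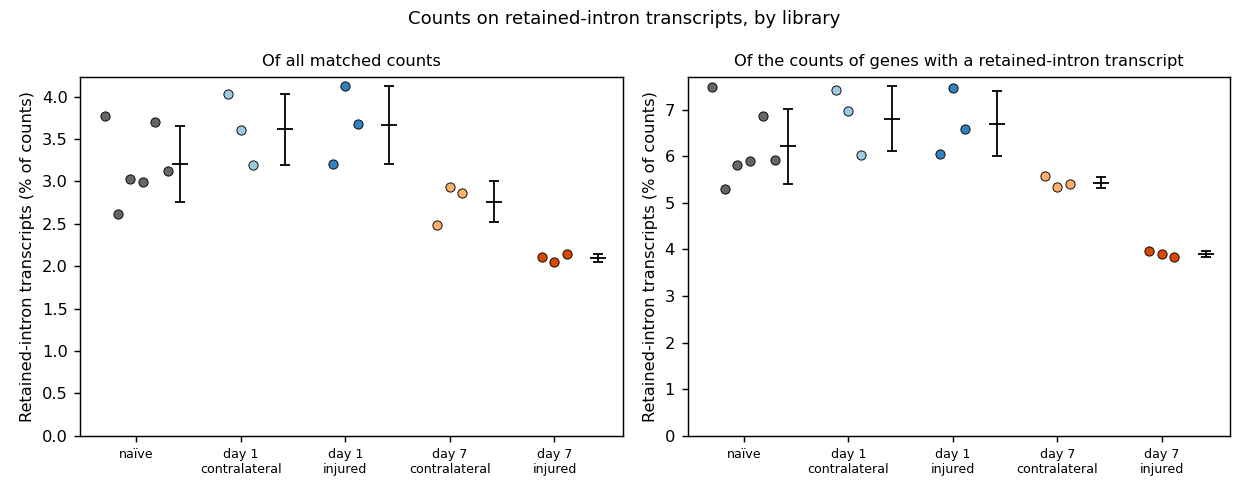
Share of retained-intron transcripts in each library, as a percent of all annotated counts (left) and as a percent of the counts of genes that have such a transcript (right). Points are libraries and bars give the mean and SD of each group. The 3 day 7 injured libraries lie at 2.05 to 2.14% on the left, below all 6 naïve libraries (2.62 to 3.77%).

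Several markers of other cells and of nuclear RNA were read in the same libraries. Malat1, an abundant nuclear noncoding RNA, stood at 3162 to 4337 CPM in naïve and 3051 to 3573 CPM in day 7 injured libraries, and Neat1, the RNA of nuclear paraspeckles, at 163 to 291 and 179 to 221 CPM. The groups overlapped for both. On the scale of library totals, which is that of the library share above, Malat1 was at 3020 to 4832 CPM in naïve, 2162 to 3440 in day 7 contralateral and 2413 to 2901 CPM in day 7 injured libraries, the last below all naïve ones. The 12 erythroid genes found, led by Hbb-bs, summed to 31220 to 41746 CPM in naïve, 30330 to 64998 in day 7 contralateral and 17876 to 29376 CPM in day 7 injured libraries, without overlap. Neutrophil genes, led by Ngp, summed to 10554 to 16438 CPM in naïve, 12327 to 17926 in contralateral and 9113 to 12480 CPM in injured libraries, which overlapped both. Osteoclast genes, led by Mmp9, were at 1047 to 1695 CPM in naïve, 1631 to 2348 in contralateral and 1863 to 2007 CPM in injured libraries. Osteoblast and osteocyte genes, led by Spp1, were at 1260 to 1804, 1212 to 2136 and 1859 to 1988 CPM in the same order. For both lists the injured libraries lay above the naïve ones and within the contralateral range. Synovial fibroblast genes, led by Prg4, were at 646 to 1707 CPM in naïve, 633 to 954 in contralateral and 1375 to 2593 CPM in injured libraries, and endothelial genes, led by Vwf, at 505 to 597 CPM in naïve, 554 to 597 in contralateral and 661 to 732 CPM in injured libraries. Adipocyte genes, led by Cfd, were at 283 to 943 CPM in naïve, 570 to 772 in contralateral and 201 to 293 CPM in injured libraries, which lay below the contralateral ones. Skeletal muscle (6109 to 19137 and 5093 to 10552 CPM, led by Ttn), macrophage (2138 to 3007 and 2477 to 3045) and B cell genes (419 to 683 and 459 to 581) overlapped between naïve and injured libraries. On library totals the injured libraries no longer lay above the naïve ones for osteoclast (1513 to 1593 against 1185 to 1744 CPM), osteoblast and osteocyte (1483 to 1601 against 1264 to 1856) and endothelial genes (up to 595 against up to 600). They lay below the naïve ones for neutrophil (7400 to 9953 against 11758 to 16478) and adipocyte genes (163 to 232 against 320 to 946). No gene found in any list was at 0 in a whole group. The part of these cells and of nuclear RNA in the retained-intron result was not tested.

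Single transcripts were compared by level with edgeR (quasi-likelihood test over all 65445 transcripts past the filter, with calls made at FDR ≤0.05 and a change of 1.5-fold or more). In day 7 injured against naïve knees, 806 of 14578 retained-intron transcripts were lower (5.53%) and 99 were higher (0.679%). Among all transcripts tested, 2.6% were lower and 4.41% were higher. The 14578 include the 3364 members without any day 7 injured library at 10 counts, and no count without them is given here. The filter thus bears on how many were lower, and the share tests below include such members too. Of 34591 protein-coding transcripts 2605 were higher (7.53%) and 408 lower (1.18%). As a median, the log2 fold change was -0.43 for retained-intron transcripts (quartiles -0.76 and -0.04), 0.10 for protein-coding transcripts, -0.10 for transcripts annotated to nonsense-mediated decay, -0.26 for noncoding processed transcripts and -0.11 for all. These values depend on the TMM scaling. On library totals the medians were -0.79 for retained-intron transcripts, -0.26 for protein-coding transcripts and -0.47 for all, and 3177 retained-intron transcripts were lower and 47 higher, beside 12.4% and 2.32% of all transcripts, while 2868 protein-coding transcripts were lower and 1372 higher. On both scales the retained-intron median lay below those of protein-coding and of all transcripts. The 806 came from 737 genes, and in 740 of them the 3 injured libraries did not overlap the 6 naïve ones. The 99 came from 91 genes, with 93 free of overlap. Of all 65445 transcripts, 4033 (6.16%) had every injured library below every naïve one and 5857 had every one above. Of the 14578 members 1744 (12.0%) lay below in this way and 235 above. Called transcripts were picked for their difference in these same libraries, so their lack of overlap is a description only. With all 18 libraries in the fit the count of lower transcripts was 437, by limma-voom also 437 and without the filter 400. Without naïve replicate 1 it was 474, and without injured replicate 2 it was 371. The count of higher transcripts was 65 without injured replicate 2 and 51 without injured replicate 3.

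The level of an isoform follows that of its gene, so each transcript was also set against the other transcripts of its gene, as the log2 ratio of its counts to theirs (limma over 55618 transcripts, with 0.5 added to both counts and the same thresholds). This ratio is called the share of the gene below, and its changes are log2 differences of the ratio. Of 14164 retained-intron transcripts tested, 792 in 732 genes had a lower share in day 7 injured than in naïve knees (5.59%) and 6 a higher one. The background over all transcripts was 2.41% lower and 0.908% higher. The median change was -0.55 (quartiles -0.97 and -0.14), and 80.6% of members lay below 0. For comparison, the median was 0.05 for protein-coding transcripts, of which 485 rose and 295 fell, -0.15 for nonsense-mediated decay, -0.37 for processed transcripts, of which 192 fell, and -0.17 for all. In 2213 retained-intron transcripts (15.6%) every injured library was below every naïve one, against 6.81% of all transcripts tested, and this held for 764 of the 792. Leaving out single libraries moved the 792 to 357 (naïve replicate 1), 377 (naïve replicate 3), 471 (naïve replicate 4), 373 (naïve replicate 5), 504 (naïve replicate 6) and 247 (injured replicate 2). With all 18 libraries in the fit 411 were lower, and with edgeR's diffSpliceDGE in place of limma 42.

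**Figure D2:**
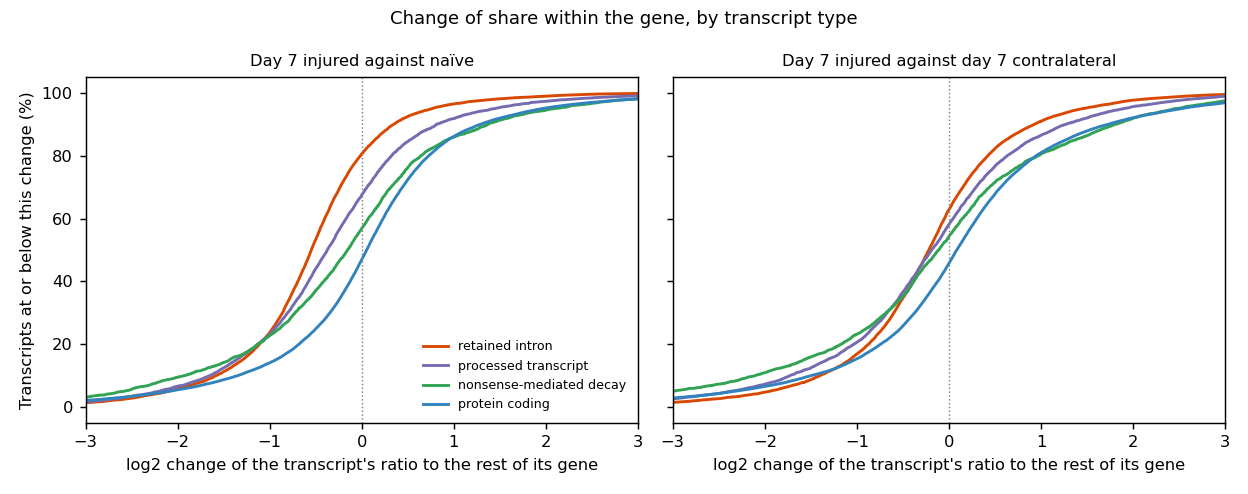
Cumulative distribution of the change in share of the gene (x axis, log2 change of the ratio of a transcript to the rest of its gene) by annotated type (y axis, percent of transcripts at or below each value), for day 7 injured against naïve (left) and against day 7 contralateral knees (right). Against naïve the retained-intron curve crosses 0 at 80.6% and has its median at -0.55, and the protein-coding median is 0.05, while against contralateral knees the retained-intron median is -0.22.

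Level and share picked out partly different transcripts. Of the 792 with a lower share, 311 also fell in level, 474 were not called by level and 7 rose in level. Of members that kept a whole intron 279 of 4553 (6.13%) were lower in share, and of those that kept part of one 510 of 9585 (5.32%), with medians of -0.56 and -0.54. By abundance, the median change in share was -0.59 for 2836 members with a mean of under 10 counts, -0.57 for 5354 at 10 to 30, -0.56 for 4378 at 30 to 100, -0.49 for 1324 at 100 to 300, -0.29 for 241 at 300 to 1000 and -0.04 for 31 at 1000 or more, of which 1 was called lower.

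The members were next grouped by what the rest of their gene did. In 12483 members the other transcripts of the gene stayed within 1.5-fold between naïve and day 7 injured knees. Here and in the bins that follow levels are TMM-scaled. Their level had a median log2 change of -0.45 and their share one of -0.51, with 759 lower in level and 490 (3.93%) lower in share. Where the other transcripts were 1.5 to 2 times higher (925 members), the median level change was -0.20 and that of the share -0.95, and 155 (16.8%) fell in share. Where they were 2 to 4 times higher (502 members), these values were 0.10 and -1.16, with 111 (22.1%) lower. In the 100 members whose gene was at least 4 times higher, the median change was 1.08 in level and -1.49 in share, and 34 (34%) fell in share while 25 rose in level. Where the other transcripts were lower, the share medians lay above 0, at 0.13 in 131 members at 1.5 to 2 times lower (level -0.67, 2 lower in share) and 0.70 in 23 members at 2 times or more (level -0.91, 0 lower in share). Such a ratio falls by construction when the other transcripts rise more than the member does, and rises when they fall more, so the shares within these bins are a description only.

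**Figure D3:**
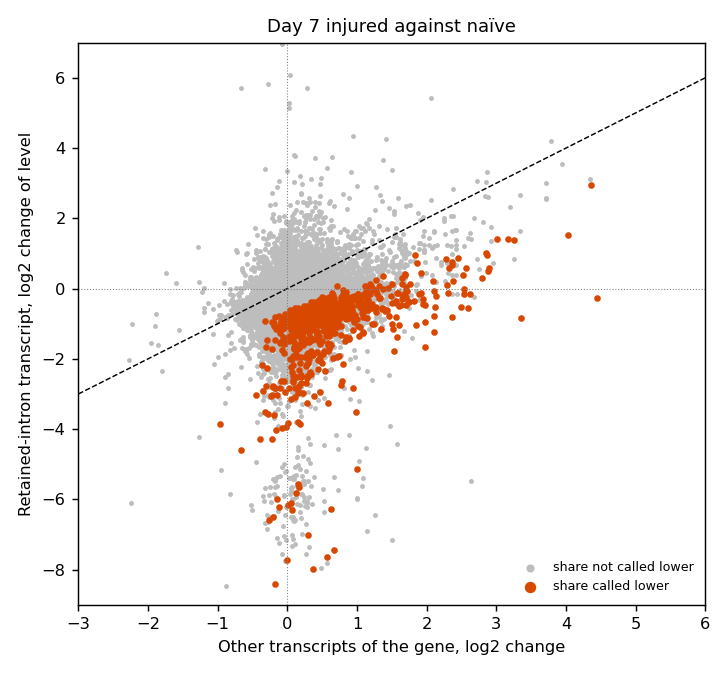
Log2 fold change of each retained-intron transcript (y axis) against that of the other transcripts of its gene (x axis), day 7 injured against naïve after TMM scaling, with the line of equal change dashed and members called lower in share in orange. Of 14164 members 14162 are drawn and 2 lie outside the axes. Members of genes at least 4 times higher lie mostly above 0 in level, with a median of 1.08, and below the dashed line.

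Among retained-intron transcripts of connective tissue matrix genes some rose in level and others fell in share, and 3 did both. Of 97 such transcripts 61 passed the filter, in 31 genes. In level, 16 of these, in 10 genes, rose at day 7 against naïve and 0 fell, with a median log2 change of 0.84, beside 0.679% of all members and 4.41% of all transcripts higher. On library totals 12 of the 16 were called. In share, 14 (23.0%), in 12 genes, fell, with a median of -1.21 against -0.55 for all members, beside 5.59% of all members and 2.41% of all transcripts lower. Where the other transcripts of the gene were 1.5 to 2, 2 to 4 or at least 4 times higher, 16.8, 22.1 and 34% of members fell. The ratio falls by construction when those transcripts rise more than the member. Whether the list differs from other genes that rose was not tested. Col6a2-203, Col12a1-203 and Postn-207 passed both tests, though Col12a1-203 was not called by level on library totals (log2 0.999, adjusted p = 0.0515 in edgeR's test). Together the list's retained-intron transcripts held 0.407% of their genes' counts in naïve knees (0.263 to 0.643%) and 0.272% in injured knees (0.209 to 0.389%), which overlapped. In contralateral knees of day 7 the value was 0.257% (0.219 to 0.306%), within the injured range. Against these knees 3 transcripts of the list were called lower in share and 0 higher, with a median of -0.60, and 10 were called higher in level.

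The level rose for Col3a1-202 by 2.57 and for Col3a1-203 by 2.54 on the log2 scale, both from the gene of type III collagen. On library totals Col3a1-202 was not called (FDR 0.062). The level rose as well for Col1a1-203 by 1.64, Col5a2-204 by 1.75 and Thbs2-202 by 3.55. Thbs2 codes for thrombospondin 2. Its transcript Thbs2-202 had 1.45 to 7.58 counts in the naïve libraries (median 2.31) and 24.5, 32.3 and 37.5 in the injured ones, with no overlap (SE 0.72, FDR 0.00764). Col6a3-206, from a type VI collagen gene, went from 23.1 to 118 counts (median 69.7) to 361, 443 and 583, a log2 change of 3.07 (SE 0.30, FDR 2.65e-05). Megf6-204, from the gene of an epidermal growth factor-like protein, had the largest fitted rise among transcripts free of overlap, from 0 to 5.81 counts in naïve libraries to 52.9, 20.4 and 71.0 (4.19, SE 1.04, FDR 0.0234), and was outside the matrix list, as was Cpxm2-204, from a carboxypeptidase-like gene, with 6.56 to 44.3 and 153, 66.9 and 77.5 counts (3.03, SE 0.48, FDR 0.00144). The summed CPM of the Col6a3 gene was 6.60-fold higher after TMM scaling and 5.06-fold on library totals. Folds of genes are given here and below without a test and after TMM scaling.

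A group of 7 retained-intron transcripts rose in level and fell in share. On library totals 3 of them, Col12a1-203, Plod2-205 and Chsy3-202, were not called by level. Col6a2-203, from another gene of type VI collagen, held 1.62 to 2.84% of its gene in the naïve libraries (median 2.18%), 2.67, 2.08 and 2.18% in contralateral libraries and 0.931, 0.574 and 0.580% in injured ones. Its gene was 8.83-fold higher. Its level rose by 1.40 (SE 0.27, FDR 0.00578), and its share fell by 1.69 (SE 0.26, FDR 0.00681). The injured libraries were thus all lower in share and higher in CPM than the naïve ones.

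Fndc1-203, with the intron shown above, held 1.13 to 2.74% (median 1.57%) in naïve and 0.520, 0.295 and 0.261% in injured libraries. Its counts were 8.90 to 29.4 and 60.4, 33.3 and 50.2, and its gene was 16.2-fold higher. The level change was 1.53 (SE 0.32, FDR 0.00874) and the share change -2.41 (SE 0.40, FDR 0.0105).

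Postn-207 held 1.77 to 2.61% (median 2.12%) of the periostin gene in naïve, 1.13, 1.15 and 2.09% in contralateral and 0.825, 0.860 and 0.793% in injured libraries. It had 32.8 to 177 counts in naïve libraries and 379, 394 and 595 in injured ones, and the gene was 20.4-fold higher. Level rose by 2.96 (SE 0.39, FDR 0.000316) and share fell by 1.39 (SE 0.25, FDR 0.0136). The other transcripts of this kind were Col12a1-203 (type XII collagen), Plod2-205 (a collagen lysyl hydroxylase), Antxr1-203 (a collagen receptor of the cell surface) and Chsy3-202 (a chondroitin sulphate synthase), whose genes were 9.54-, 4.81-, 8.10- and 3.39-fold higher.

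Other matrix transcripts fell in share without a called level. Eln-202, from the elastin gene, went from 3.52 to 0.570% of its gene (log2 -2.64), Thbs3-203 from 4.94 to 1.41% (-1.83) and Tgfbi-205 from 0.443 to 0.106% (-2.003, with 0.109% in contralateral knees), each a mean of the naïve and of the injured libraries. The contralateral means of Eln-202 and Thbs3-203 were 2.42 and 4.65%. Eln-205 (-2.26), Sparc-204 (-1.71), Bgn-202 (-1.64), Col8a1-202 (-1.57), Fn1-215 (-1.51) and Fn1-202 (-1.27) were also lower. Their means in naïve, contralateral and injured knees were 1.41, 1.89 and 0.312% for Eln-205 and 0.0535, 0.0288 and 0.0159% for Sparc-204. For Bgn-202 they were 0.316, 0.230 and 0.0983%, and for Col8a1-202 2.37, 1.19 and 0.792%. For Fn1-215 they were 0.245, 0.223 and 0.0804%, and for Fn1-202 0.228, 0.145 and 0.0932%. Fn1-204 and Fbln2-206, among the most abundant of the list, were not called.

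In genes of matrix proteases, their inhibitors and the enzymes that modify collagen, 12 of 34 members (35.3%) in 9 genes fell in share, with a median of -1.32, beside the 5.59% of all members and 2.41% of all transcripts. Among members of any gene whose other transcripts were at least 4 times higher, 34% fell, and at 2 to 4 times 22.1%. Whether this list differs from other genes that rose was not tested. The 34 were those of 57 that passed, in 19 genes. In level 4 rose, in 3 genes, and 1 fell, beside 4.41% of all transcripts and 0.679% of all members higher, and 2.6 and 5.53% lower. On library totals 2 of the 4 that were higher were called (Htra1-203 and Mmp14-207). Together the members of the list held 7.67% ± 0.524 (SD, n = 6; 6.97 to 8.54%) of their genes' counts in naïve, 6.82 to 7.56% in contralateral and 4.34% ± 0.864 (SD, n = 3; 3.36 to 4.99%) in injured libraries, without overlap of the injured libraries with either control. Against contralateral knees 2 members of the list were called lower in share and 0 higher, with a median of -1.30.

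Plod1-204, with intron 9 kept, held 5.30 to 7.55% of its gene (median 6.90%) in naïve, 4.45, 5.6 and 6.37% in contralateral and 1.77, 1.59 and 1.36% in injured libraries. Its gene was 3.11-fold higher. The level of Plod1-204 was not called (log2 -0.45, FDR 0.221), with 2.55 to 4.16 CPM in naïve and 2.48 to 2.60 CPM in injured libraries after TMM scaling, and 2.44 to 4.71 and 1.98 to 2.11 CPM of the library total. Its share fell by 2.14 (SE 0.26, FDR 0.0018). P4ha2-210, from a collagen prolyl hydroxylase gene that was 5.94-fold higher, held 4.71 to 13.7% (median 6.99%) in naïve and 1.07, 1.12 and 1.13% in injured libraries (share -2.75, SE 0.38, FDR 0.00378).

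Pcolce-205, from the gene of the procollagen C-proteinase enhancer, fell by 3.20 in share, Bmp1-204, from that of the proteinase itself, by 1.94 (1.47 to 0.385% of the gene), and Loxl3-204, from a lysyl oxidase gene, was also called lower in share (1.54 to 0.179% of the gene), where injured libraries at 0 counts leave the size of the change to the added 0.5. Mmp14 codes for a membrane-bound collagenase. Mmp14-205 fell in share by 2.36, from a mean of 0.930 to 0.178% of the gene, and its level was not called (log2 0.51, FDR 0.277). Mmp14-207 rose in level by 3.33 (SE 0.71, FDR 0.0107), from 13 to 80.9 counts in naïve libraries to 384, 455 and 290 in injured ones, and its share was not called (0.67, SE 1.12, FDR 0.782). Adamts9-206, from a gene of a proteoglycan-cleaving protease, fell in level by 1.31 and in share by 1.98 (2.54 to 0.620% of the gene). Contralateral means were 1.53% for Adamts9-206, 1.08% for Bmp1-204, 0.930% for Loxl3-204 and 0.750% for Mmp14-205. Pcolce-205 had means of 0.783% in naïve, 0.532% in contralateral and 0.0790% in injured knees. Htra1-203, from a serine protease gene, rose in level by 2.06.

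Further members with a lower share against both controls came from secreted and membrane proteins and from regulators. Capn6-202, from a calpain gene that was 9.79-fold higher, held 4.97 to 10.4% (median 8.38%) in naïve, 3.18, 2.87 and 3.71% in contralateral and 0.720, 0.261 and 0.451% in injured libraries (share -4.23, SE 0.34, FDR 5.77e-05). Thy1-202, from the gene of a fibroblast and T cell surface protein, held 8.72 to 19.3% (median 13.1%) in naïve, 17.9, 9.69 and 10.4% in contralateral and 2.41, 1.68 and 1.88% in injured libraries (share -2.92, SE 0.38, FDR 0.00252). In both the injured libraries lay below all control libraries.

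Pofut2-202, from a gene of a protein O-fucosyltransferase that was 3.63-fold higher, held 7.94 to 11.6% (median 10.2%) in naïve, 5.31, 7.76 and 9.28% in contralateral and 2.10, 2.36 and 2.11% in injured libraries (share -2.27, SE 0.25, FDR 0.00101). Angptl2-203, whose gene was 7.26-fold higher, held 2.76 to 5.49% (median 3.69%) in naïve, 5.90, 4.15 and 3.22% in contralateral and 0.673, 0.879 and 0.825% in injured libraries (share -2.28, SE 0.31, FDR 0.00359). Pkd1-202, with the 89-base intron above, held 1.82 to 2.62% (median 1.96%) in naïve, 1.08, 1.89 and 1.48% in contralateral and 0.349, 0.577 and 0.538% in injured libraries (share -2.12, SE 0.20, FDR 0.000347). In none of the 3 did an injured library reach the lowest naïve or day 7 contralateral one.

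Ecm1-210, with the 123-base intron above, held 0.389 to 0.591% (median 0.521%) in naïve, 0.570, 0.576 and 0.923% in contralateral and 0.169, 0.0422 and 0.0950% in injured libraries, with 4.59 to 15.3 counts in the naïve ones (share -2.40, SE 0.37, FDR 0.0077). Zfp260-207, from a zinc finger gene, held 5.92 to 8.29% (median 6.71%) in naïve and 3.46, 2.65 and 2.95% in injured libraries (share -1.24, SE 0.20, FDR 0.00985), and Zfp9-202 held 4.18 to 9.26% (median 6.36%) and 1.16, 0.981 and 1.05% (share -2.60, SE 0.38, FDR 0.00512).

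Other such members came from genes nearer to their naïve level, on which the scalings differed in direction for Arhgef18 and Evi5. Arhgef18-203, from the gene of a guanine nucleotide exchange factor, held 23.2 to 52.0% (median 38.9%) of its gene in naïve, 79.3, 36.3 and 55.9% in contralateral and 21, 11.6 and 14.6% in injured libraries, while the gene was at 1.18 times its naïve level after TMM scaling and at 0.899 times on library totals. It fell in level by 1.01 (FDR 0.015) and in share by 1.73 (FDR 0.023). Evi5-209, from a gene of a Rab GTPase-activating protein, held 2.42 to 3.86% (median 3.07%) in naïve and 0.894, 1.46 and 0.748% in injured libraries with its gene at 1.04 times the naïve level after TMM scaling and 0.806 times on library totals, and it fell in level by 1.53 (SE 0.29, FDR 0.00487) and in share by 1.62 (SE 0.27, FDR 0.0108). Srprb-202, from the gene of a subunit of the signal recognition particle receptor, held 13.7 to 19.1% (median 16.4%) in naïve and 8.24, 6.93 and 8.47% in injured libraries (share -1.18, SE 0.18, FDR 0.00762).

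**Figure D4:**
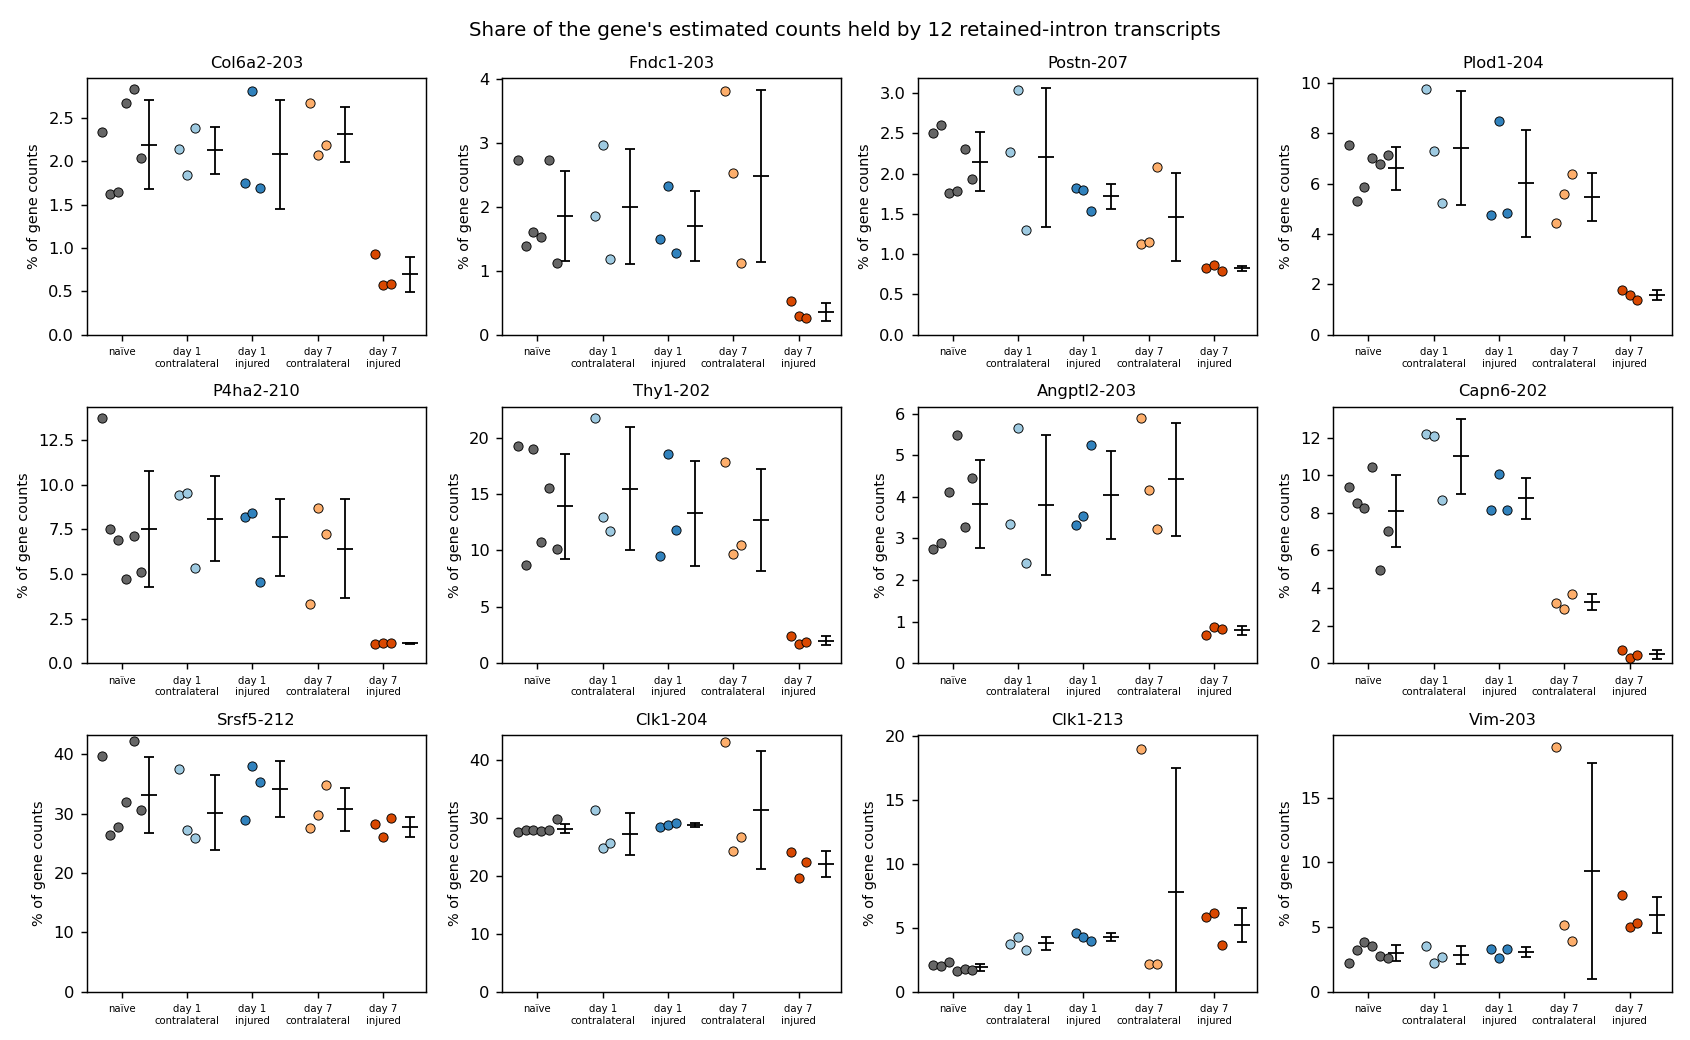
Percent of the gene's counts held by each of 12 retained-intron transcripts (y axis) in every library, by group, with bars for the mean and SD. For Plod1-204 the 3 day 7 injured libraries lie at 1.36 to 1.77%, below the naïve libraries at 5.30 to 7.55%.

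Genes of the splicing machinery were read in separate lists, and in the 4 described here between 3.33 and 7.89% of members fell in share, beside the 5.59% of all members. In the SR proteins and their relatives, 38 of 43 members passed, in 13 genes, and they held 15.4% ± 2.54 (SD, n = 6; 13.1 to 20.01%) of their genes' counts in naïve, 12.1 to 14% in contralateral and 11.8% ± 0.639 (SD, n = 3; 11.2 to 12.4%) in day 7 injured libraries. Of the 38, 3 fell in share (7.89%, median -0.52) and 2 in level, and 0 rose in either. The 2 are 5.26% of the list, close to the 5.53% of all members lower in level, beside 2.6% of all transcripts. The 3 were Tra2b-203 (share -0.80, a mean of 7.27% of the gene in naïve, 5.49% in contralateral and 4.24% in injured knees), Tra2b-208 (-0.68, with 8.08, 6.16 and 5.17%) and Srrm1-215 (-1.59). Srsf5-212, the most abundant, held 26.5 to 42.3% in naïve and 26 to 29.3% in injured libraries and was not called (share -0.35, FDR 0.474). Srsf6-204 held 14 to 26.7% and 13 to 14.5% (share -0.66, FDR 0.135).

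The kinases of SR proteins held the highest naïve share of the 13 lists described here. Their 30 passing members of 35, in 8 genes, held 24.5 to 31.3% in naïve, 22.0 to 28.1% in contralateral and 21.3 to 22.2% in injured libraries. The injured libraries lay below the naïve ones and overlapped the contralateral ones. In share 1 member fell (3.33%) and 1 rose (median -0.49), beside 0.0424% of all members and 0.908% of all transcripts higher. In level 3.33% of the list rose and 6.67% fell, beside 0.679% and 5.53% of all members and 4.41% and 2.6% of all transcripts. Clk1-204, with the 87-base intron above, held 27.6 to 29.9% in naïve and 19.7 to 24.2% in injured libraries (share -0.48, FDR 0.0711). Clk4-213 held 26 to 36.2% and 24.2 to 26.6% (share -0.46, FDR 0.122). Neither was called. Srpk1-203 fell in level by 0.83 and in share by 0.90, with means of 7.72% of the gene in naïve, 5.16% in contralateral and 4.27% in injured knees.

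Of 177 members in genes of the spliceosome and splicing helicases 142 passed, in 50 genes, and 8 fell in share (5.63%, median -0.45) and 11 in level, with 0 higher in either. The 5.63% is close to the 5.59% of all members by share, and the 11 are 7.75% of the list, beside 5.53% of all members by level. They held 9.78 to 13.9% in naïve, 8.41 to 9.67% in contralateral and 8.20 to 8.89% in injured libraries, the injured ones overlapping the contralateral. No member of the 4 lists was called in share against contralateral knees. Prpf3-204, from the gene of a component of the U4/U6 particle, fell in share by 1.91 and in level by 1.61, with means of 13% of the gene in naïve, 7.30% in contralateral and 4.07% in injured knees. U2af2-206, from the gene of the factor that reads the pyrimidine stretch of the 3′ splice site, fell in share by 1.51, with 3.72, 1.98 and 1.45% in the same order. Sf3b1-202, from that of a branch-point factor, fell by 0.68 against naïve, with 2.40% in naïve, 1.44% in contralateral and 1.49% in injured knees, the last being no lower than the contralateral value. Genes known for regulated intron retention had 2 of 48 lower in share (4.17%, median -0.34), with 12.6 to 17.9% in naïve, 12.6 to 13.4% in contralateral and 11.7 to 13.2% in injured libraries. Among these Nktr-216 fell in share by 0.79 (means of 4.38, 3.43 and 2.59% in the same order), Ccnl1-202 fell in level by 1.06, and Arglu1-204, which held 56.4 to 73.8% of its gene in naïve and 58.3 to 64.9% in injured libraries, was not called.

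**Figure D5:**
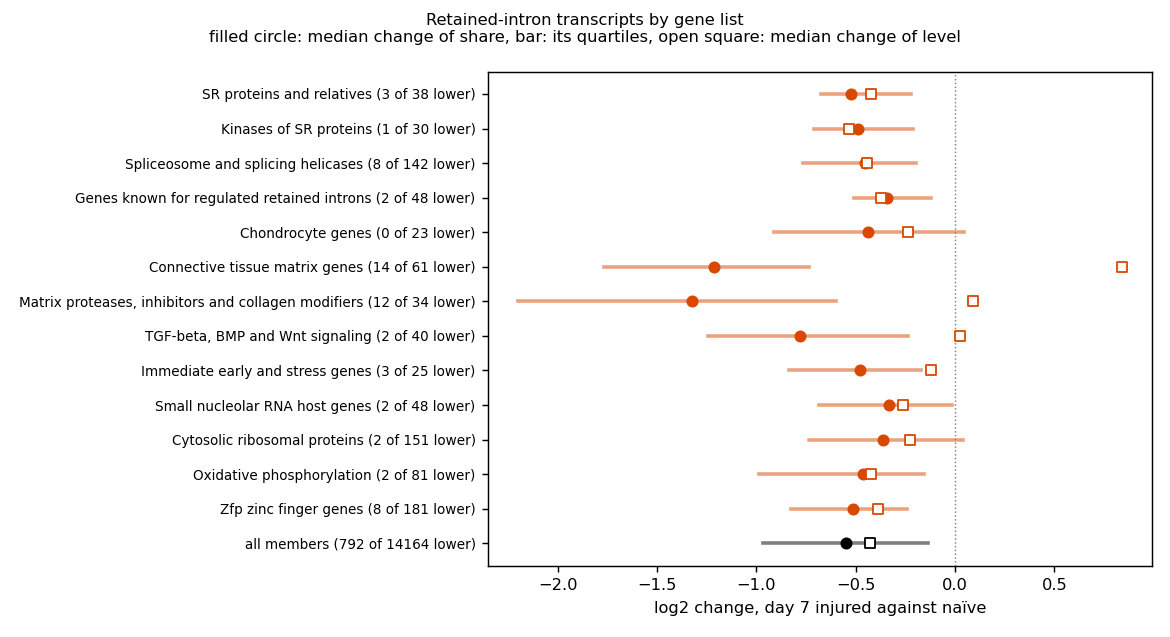
Median log2 change, day 7 injured against naïve, of the retained-intron transcripts of each gene list, with filled circles for the share of the gene, bars for its quartiles and open squares for the level. The share medians of connective tissue matrix genes (-1.21) and of proteases and collagen modifiers (-1.32) lie below that of all members (-0.55), with level medians of 0.84 and 0.09, and those of the 4 splicing lists drawn lie between -0.34 and -0.52. The share falls by construction where the rest of the gene rises more than the member, and the lists are not matched for this.

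The other lists are read against the 5.59% of all members. Chondrocyte genes had 0 of 23 lower in share (median -0.44). Their retained-intron transcripts held 0.526 to 0.730% of the genes' counts in naïve, 0.349 to 0.564% in contralateral and 0.346 to 0.388% in injured libraries, and Sox6-214, from the gene of a chondrocyte transcription factor, fell in level by 0.80. Components of TGFβ, BMP and Wnt signalling had 2 of 40 lower (median -0.78), including Ltbp2-207 (-2.10). Immediate early genes had 3 of 25 lower (median -0.48), with Fosl2-203, from an AP-1 subunit gene, falling by 2.13 (1.90 to 0.458% of the gene) and Fosl2-202 by 1.39. As a list they held 4.55 to 6.56% in naïve, 4.22 to 6.23% in contralateral and 2.98 to 3.57% in injured libraries. Zinc finger genes had 8 of 181 lower (median -0.51) and held 9.66 to 11.7% in naïve, 9.30 to 10.1% in contralateral and 7.74 to 8.49% in injured libraries.

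Among cytosolic ribosomal protein genes 2 of 151 members fell in share and 1 rose (median -0.36), but together they held 3.70 to 4.56% of the genes' counts in naïve and 3.92 to 4.34% in injured libraries, which overlapped. Oxidative phosphorylation genes had 2 of 81 lower (median -0.46), and hosts of small nucleolar RNAs 2 of 48 (median -0.33).

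A total of 6 retained-intron transcripts gained share at day 7 against naïve, and 5 of them also rose in level. These calls were not stable. With all 18 libraries in the fit 0 members were called higher in share, and there was 1 without naïve replicate 5, 2 without injured replicate 2 and 3 without naïve replicate 3 or injured replicate 3. Clk1-213 held 1.6 to 2.29% of its gene in naïve, 3.27 to 4.30% in day 1 contralateral, 4.00 to 4.63% in day 1 injured, 19.0, 2.18 and 2.16% in day 7 contralateral and 5.85, 6.17 and 3.66% in day 7 injured libraries (share 1.46, SE 0.22, FDR 0.0061). It came from the same gene as Clk1-204, whose share was not called. Rps26-202, from a ribosomal protein gene, held 3.92 to 22.9% in naïve and 39.5, 39.1 and 35.5% in injured libraries (2.41, SE 0.60, FDR 0.047). Its mean in day 7 contralateral knees, with the replicate that stood apart, was 40.4%, no lower than the 38.0% of injured knees. Ribosomal protein genes have many processed pseudogenes, so the division of their reads is uncertain.

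Vim-203, from the vimentin gene, which was 2.47-fold higher, held 2.18 to 3.8% in naïve, 18.9, 5.15 and 3.91% in contralateral and 7.51, 4.98 and 5.33% in injured libraries (1.02, SE 0.22, FDR 0.0278). Rgs3-207, from the gene of a G-protein signalling regulator, held 24.1 to 29.7% in naïve and 34.3, 40.1 and 44.9% in injured libraries (0.81, SE 0.19, FDR 0.0353). Nbea-203 held 0.915 to 4.09% and 9.42, 11.7 and 8.81% (2.03, SE 0.48, FDR 0.0398). Blm-203, from a DNA helicase gene, held 3.84 to 9.12% and 11.9, 14.6 and 10.7% (1.22, SE 0.28, FDR 0.0374), and its level was not called (FDR 0.0933). For Clk1-213, Rps26-202 and Vim-203 the contralateral replicate that stood apart had the highest value of all 18 libraries.

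At the other end, 52 of the 806 transcripts lower in level had at most 3 counts in each injured library, so their fold changes are bounds against a floor of 3 counts per library. They passed the filter only through other groups, so the filter itself helped to select them. Their values are a description and support no result on the class. Dkc1-209, from the gene of dyskerin, a pseudouridine synthase, had 9.57 to 68.4 counts in naïve and 0 in all 3 injured libraries, and was at least 6.14-fold lower (FDR 0.0291) with its gene at 0.977 times the naïve level. Abcf3-204, from a gene of an ABC family ATPase, had 6.42 to 25.2 counts and 0, and was at least 3.79-fold lower (FDR 0.000492). Mdm4-209, from the gene of a p53 regulator, had 6.37 to 13.1 counts and 0, and was at least 2.70-fold lower (FDR 0.00122). Mis18a-203 and Baz1a-206 were at least 2.29- and 2.16-fold lower. Their genes stood between 0.862 and 1.20 times the naïve level in these 5 cases after TMM scaling, and between 0.661 and 0.928 times on library totals. Psmd13-207, from a proteasome gene, was called lower in share (FDR 0.0218), with 3.31 to 11.1% of its gene in naïve, 0, 6.03 and 1.49% in contralateral and 3.19, 0 and 0% in injured libraries. Its libraries at 0 leave the size of the change to the added 0.5, and no size is given.

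Introns kept in transcripts with a lower share were described beside those of other members. Among the 279 whole-intron members with a lower share, the median intron length was 635 bases and the median GC content 46.1%, and among the 4274 others these were 296 bases and 50.3%. Split by length into 4 classes of near-equal size, 38 of 1142 members with 30 to 129 bases, 48 of 1139 with 130 to 308, 75 of 1135 with 309 to 830 and 118 of 1137 with 832 to 12240 fell in share. The medians of the change itself were -0.51, -0.57, -0.54 and -0.59, close to each other across the 4 classes. By GC content, from the lowest of 4 such classes to the highest, 89, 92, 56 and 42 members fell. The letters GTAAGT opened 11.8% of the introns of the lower members and 10.1% of the others, and GTGAGT opened 12.2 and 15%. These are descriptions, and members of a gene share its base composition and length.

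Against the contralateral knees of the same day, which share the injured libraries with the comparison above, fewer transcripts passed the thresholds. By level 50 of 14578 members rose and 80 fell, with a median of -0.19, beside 2.68% of all transcripts higher and 0.477% lower. By share 1 of 14144 rose and 25 fell, with a median of -0.22 (all transcripts -0.04), beside 0.101% higher and 0.132% lower. Without contralateral replicate 1 the counts by level were 52 and 71, and those by share 4 and 17. On library totals 24 rose and 132 fell by level, so that the lower ones made up 84.6% of the calls against 61.5% after TMM scaling, beside 1.48% of all transcripts higher and 1.24% lower. The level count of lower members was 127 without contralateral replicate 2 and 52 without injured replicate 2, that of higher members 25 without injured replicate 3, and the lower share count 14 without contralateral replicate 2 and 48 without injured replicate 1. The higher share count was 5, 20, 2 and 2 without contralateral replicates 2 and 3 and injured replicates 1 and 2.

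All 25 members with a lower share against contralateral knees were also called against naïve knees, which rests in part on the common injured libraries. Among them were Capn6-202 (share -2.94, SE 0.39, FDR 0.00569), Angptl2-203 (-2.51, SE 0.38, FDR 0.0149), Thy1-202 (-2.78, SE 0.45, FDR 0.0205), Plod1-204 (-1.85, SE 0.31, FDR 0.0238), Col6a2-203 (-1.79, SE 0.30, FDR 0.0238) and Pkd1-202 (-1.61, SE 0.27, FDR 0.0238). Fbn2-203, from a fibrillin gene that was 22.1-fold higher than in naïve knees, held 4.94, 1.13 and 1.67% of it in contralateral and 0.137, 0.0689 and 0.0776% in injured libraries (-4.53, SE 0.77, FDR 0.0275). Of the 792 lower against naïve, 790 were tested here and 757 lay below 0, with a median of -0.81. Since the 792 were chosen for low values in the same injured libraries, most would lie below 0 by that choice. Of all members 62.8% lay below 0 here. The 1 member that rose, Rasa1-205, from the gene of a Ras GTPase-activating protein, was listed at 0 counts in all 3 contralateral libraries, at 12.1 to 21.9 counts in naïve and at 13.2, 10.4 and 27.1 in injured ones.

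At day 1 no retained-intron transcript passed the thresholds, in level or in share, against naïve or contralateral knees. By level 0% of all transcripts were called in either direction in either comparison. By share 0.0108% of all transcripts were higher and 0.00539% lower against naïve, and 0.00899% and 0.0036% against contralateral knees. At an unadjusted p under 0.05 in edgeR's test, 358 of 14578 members differed in level from naïve (228 higher, 130 lower) and 229 from contralateral knees (118 and 111). Of all transcripts 1.45% were higher and 2.15% lower by this rule against naïve, and 1.73 and 1.5% against contralateral knees. In limma's test of the share, 411 of 14164 members (279 higher and 132 lower) and 257 (138 higher) did, beside 2.1% of all transcripts higher and 2.26% lower against naïve and 1.33 and 1.51% against contralateral knees. The median changes were 0.09 and 0.02 in level and 0.15 and 0.02 in share. With DESeq2, 4 members were higher and 5 lower in level than in naïve, and 1 and 3 than in contralateral knees. With diffSpliceDGE, 3 were higher and 5 lower in share than in naïve and 4 and 3 than in contralateral knees, and with limma-voom 0 were called by level.

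The largest fitted change at day 1 against naïve was that of Gins2-203, from the gene of a subunit of the replicative helicase complex (level FDR 1, share FDR 0.113). It was at or near 0 in naïve libraries and had 123, 60.3 and 182 counts in day 1 contralateral and 28.6, 103.5 and 104 in day 1 injured libraries. It was high in all day 1 libraries of both knees and at 0 in all day 7 contralateral ones, and 1 day 7 injured library had 36.1 counts. Against the contralateral knees the largest was Atic-203, from a gene of purine synthesis, with 39.9, 32.5 and 0 counts in contralateral and 0 in all injured libraries (FDR 1).

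The injury effect at day 7 (injured minus contralateral) was set against that at day 1 in 1 contrast over all 18 libraries. By level 3 retained-intron transcripts had a higher and 3 a lower effect at day 7, beside 0.336% and 0.0183% of all transcripts, and the median difference was -0.18. At an unadjusted p under 0.05, 199 were higher and 624 lower, beside 5.09% of all transcripts higher and 3.28% lower. By share 0 passed, beside 0.00721% and 0.00901% of all transcripts, while 152 were higher and 732 lower at an unadjusted p under 0.05, beside 2.61% and 3.46% of all transcripts, and diffSpliceDGE called 3 and 34. These small counts moved with single libraries, between 1 and 10 higher and 0 and 7 lower by level, with the high value of 10 without day 7 contralateral replicate 3 and that of 7 without day 7 injured replicate 3.

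The most abundant retained-intron transcripts by length-corrected level came from genes of several kinds. Hba-a1-202, from an α-globin gene, had a mean of 363 TPM in naïve knees (216 to 560) and 124 TPM in day 7 injured knees, beside the lower erythroid sums given above, and was not called. Rps16-203 had 145 (114 to 194) and 137 TPM and Rps20-201, which held 68.3% of its gene, 120 (99.5 to 147) and 111 TPM. Ctsb-202, from the gene of cathepsin B, had 123 (83.9 to 155) and 142 TPM, S100a8-202, from a neutrophil gene, 106 (80.3 to 143) and 59.0 TPM, and Ppia-203 66.1 (51.4 to 94.6) and 37.4 TPM. None of these was called. Hba-a1, Rps16, Rps20 and Ppia have near-identical copies or pseudogenes, and the division of their reads is uncertain. Itm2b-202, from the gene of an integral membrane protein, was at 69.4 TPM (56.4 to 88.9) in naïve and 102 TPM in injured libraries, with a log2 change in level of 0.89 (SE 0.19, FDR 0.0104). On library totals the change was 0.54, under the 1.5-fold limit, with all 18 libraries in the fit its FDR was 0.492, and without injured replicate 3 it was 0.0654. It held 14.6 to 24.2% of its gene in naïve, 0.371, 25.6 and 22.9% in contralateral and 23.4 to 34.5% in injured libraries.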

How the data were processed

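Reads were trimmed and pseudo-aligned with Kallisto to the GRCm38 mouse transcriptome by the authors, who deposited estimated counts and TPM per transcript of each library (counts scaled by effective length and library total). The submitters' processing notes name a human build, GRCh38, with these mouse files. Transcripts were matched to GENCODE M21 by identifier without version (135107 of 137436, 98.3%), the remaining 2329 being left out. They took 0.667 to 3.90% of the counts. The strand setting of the counting is not given in the sources used here.

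Estimated counts were rounded and tested with edgeR 4.0.16 (TMM factors on counts past the filter, quasi-likelihood test) in R 4.3.3. Shares of the gene were tested with limma 3.58.1 in genes with a mean total of at least 50 counts. Naïve and day 1 comparisons were fitted on 15 libraries without the day 7 contralateral group, the others on all 18. FDRs are Benjamini-Hochberg values over all transcripts tested. DESeq2 1.42.0, limma-voom, diffSpliceDGE, other filters, scalings and pseudocounts and leaving out single libraries were alternatives. Whole introns of at least 30 bases were found from exon coordinates. Named transcripts were, with earlier results in view, the 8 most abundant in naïve knees, the 6 furthest up and down by level and by share among called transcripts without overlap, the 3 most abundant of 7 gene lists, those called by share against both day 7 controls in a listed gene, and the largest at day 1. Others were named after their values were seen. The class of transcripts, whose members are fixed by annotation, and the gene lists were chosen with earlier results of these data known. The fits were also run on simulated counts with a fixed spread, independent libraries and no division of reads among isoforms. That run does not bear on shared mice or shared reads. Floors cover counting error only. A few items are not reported here.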

Additional observations from a re-analysis of the deposited data

Results flagged for a closer look

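In 4 of 45 naïve groups of values tested, 1 of the 6 naïve libraries lay far from the others, and chance marks about 1 in 20 such groups. The outlying values, as percent of the gene, were 7.30% for Hba-a1-202, 29.9% for Clk1-204, 9.996% for Hnrnpa2b1-211 and 28.8% for Rbm5-219.

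A group of 6 transcripts had an injury effect on level that differed between day 7 and day 1 in edgeR's contrast over 18 libraries. The log2 differences were 2.90 for Pkd1-210 (FDR 0.0496), 2.76 for Mxra8-202 (FDR 0.0432), 7.40 for Rasa1-205 (FDR 0.00945), -5.58 for Gsn-202 (FDR 0.0327), -8.14 for Cenpt-206 (FDR 0.0432) and -6.40 for Dpm1-208 (FDR 0.0246). In the last 4 a group was at or near 0 counts, so that the fitted size depends on the prior count and is no bound.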

How the results depend on the processing

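The alternatives refitted the libraries in which transcripts had been called, so that a kept sign was nearly fixed by that choice. All 806 lower, 99 higher and 792 lower-share transcripts at day 7 against naïve kept their sign under every alternative in which they were tested. How many of them were called again ran from 266 (without injured replicate 2) to all of them (library totals) for the 806, from 46 (library totals) to 99 (DESeq2 size factors) for the 99 and from 21 (diffSpliceDGE) to 735 (without naïve replicate 2) for the 792, while a minimum gene total of 200 kept every one of those it left to be tested. Of the 792, diffSpliceDGE called 21, a pseudocount of 5 kept 581 and TPM ratios 519. With all 18 libraries in the fit, 437 were lower in level, 411 lower and 0 higher in share. On library totals without TMM, an alternative chosen after seeing the data, 3177 were lower and 47 higher, the counts against contralateral knees were 132 and 24, and for the difference between days 1 and 1. Without a filter 400 were lower in level, by limma-voom 437, and DESeq2 called 177 higher. DiffSpliceDGE called 42 lower in share.

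Against contralateral knees DESeq2 called 133 higher and 314 lower in level, limma-voom 24 lower, and no filter gave 36 lower. Shares gave 5 higher and 76 lower with diffSpliceDGE, 0 and 57 with a pseudocount of 5, and 2 and 12 with TPM ratios. At day 1 DESeq2 called 4 higher and 5 lower against naïve and 1 and 3 against contralateral knees, and diffSpliceDGE 3 and 5, and 4 and 3. For the difference between days, no filter gave 1 and 1 by level, DESeq2 19 and 46 and limma-voom 0 lower, diffSpliceDGE 3 and 34 by share, and TPM ratios 1 lower. The library share at day 1 against contralateral knees turned to -0.109 points within genes that have a retained-intron transcript, an alternative chosen after seeing the data. The cause of these differences was not tested.

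Leaving out 1 library at a time gave library-share differences of -1.22 to -0.993 points at day 7 against naïve, -0.799 to -0.575 against contralateral knees, 0.233 to 0.693 at day 1 against naïve and -0.172 to 0.287 against contralateral knees, negative without contralateral replicate 3 (-0.154) or injured replicate 2 (-0.172). Counts against naïve at day 7 ranged over 51 to 96 higher and 371 to 982 lower by level, and 1 to 7 and 247 to 1047 by share. Against contralateral knees they were 25 to 75 and 52 to 127 by level, and 1 to 20 and 14 to 48 by share. For the difference between days they were 1 to 10 and 0 to 7 by level, and 0 to 1 and 0 to 5 by share. At day 1 they were 0 by level, 0 to 1 higher and 0 to 1 lower by share against naïve, and 0 to 1 and 0 against contralateral knees. No paired analysis was run here because the labels do not say which libraries share mice. The study's own analysis did account for samples of the same mouse pool. Members with few counts limit what single transcripts can show, and isoform counts rest on Kallisto's division of shared reads.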
